A study of Rattus norvegicus with 40 samples.

Results

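SU5416 is an inhibitor of receptors for vascular endothelial growth factor (VEGF), and rats given 1 injection of it before chronic hypoxia develop severe pulmonary hypertension that overloads the right ventricle. Right ventricles of animals given SU5416 were compared with those of animals not given it, across all groups of the series. Animals counted as given SU5416 were those titled SuHx RV or SuHx Carvedilol RV, 12 of the 24 animals and 20 of the 40 arrays. The other 12 animals, titled Hypoxia RV or Normal RV, had the other 20 arrays. A gene met the rule when the pooled comparison called it and the means of both SU5416 groups lay on one side of the means of both other groups. Of 9777 tested genes, 1051 met the rule.

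All animals were male Sprague-Dawley rats, with 6 in each of 4 groups, and RNA came from the dissected, snap-frozen right ventricle. SuHx animals received 1 subcutaneous injection of SU5416 (20 mg/kg), breathed 10% oxygen for 4 weeks and were then kept 2 weeks at sea level. SuHx Carvedilol animals received the same injection and hypoxia, and then carvedilol, an adrenergic receptor blocker (beta and alpha1), at a daily 15 mg/kg by gavage in dimethyl sulfoxide and water for 4 weeks in room air. Hypoxia animals breathed 10% oxygen for 4 weeks without SU5416, and the labels do not state a return to air. Normal animals were neither injected nor made hypoxic. Animals given SU5416 without hypoxia, or its vehicle alone, were not analysed here, and ages were not given in the sources used here. All SU5416-given animals were made hypoxic, but on the other side only the Hypoxia group was. SU5416, hypoxia, the weeks in air after it, carvedilol with its vehicle and the state of the ventricle therefore differ together between the sides. Age at sampling may differ as well, and these cannot be told apart.

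VEGF receptors on endothelial cells bind VEGF ligands and maintain the capillary bed, with the angiopoietins and apelin acting on the same cells. SU5416 also binds the aryl hydrocarbon receptor (AhR), a transcription factor activated by small aromatic molecules. Bound AhR pairs with Arnt and switches on genes of xenobiotic metabolism, Cyp1a1 first among them. A pressure-loaded right ventricle is known for hypertrophy, return of fetal genes, fibrosis and a shift of fuel use from fatty acids to glucose.

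Each array compared RNA of 1 animal with a common reference RNA, and every value below is a log2 ratio of sample over reference, averaged over the arrays of an animal. Differences are SU5416-given minus other animals on the log2 scale, from 1 mean per group with the groups of a side weighted equally. Each difference is followed by its standard error after ±, and adjusted p-values are limma's over all tested genes. The 40 arrays held between 19264 and 35758 spots with a value. SU5416-given animals averaged 28287 ± 1378 such spots, and the other animals 29644 ± 4489 (SD, n = 12 each), a difference with p = 0.332 in a permutation test (adjusted p = 0.450 over 2 tests). The SD of an animal's log ratios averaged 1.93 ± 0.09 in SU5416-given and 1.88 ± 0.21 in the other animals (permutation test, p = 0.450). Within the side without SU5416 the groups differed: Hypoxia animals had 22759 to 28400 spots with a value and Normal animals 28192 to 35758. Their SDs of log ratios did not overlap, at 1.99 to 2.17 in Hypoxia and 1.57 to 1.81 in Normal animals. SuHx animals had SDs of 1.81 to 1.95 and SuHx Carvedilol animals 1.87 to 2.07. The permutation tests compared the sides and not these groups. Within a group, animals are called 1 to 6 by the labels' biological replicate number, which is not the animal number in their titles. Animals whose title number is over 100 were all 6 SuHx Carvedilol and 2 Hypoxia animals, and the labels do not say what that number means. Leaving them out therefore sets SuHx animals alone against Normal and 4 Hypoxia animals. It left 405 genes meeting the rule, against 1051 with all animals.

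Between SU5416-given and other animals, 1214 genes were called at an adjusted p under 0.05, which is 12.4% of those tested. Of these, 616 (6.3%) were higher and 598 (6.12%) lower in SU5416-given animals. The group means stood on one side for 3389 genes (34.7%) whether called or not, and 1051 genes (10.7%) met both conditions. Of the genes that met the rule, 507 (5.19% of all tested) were higher and 544 (5.56%) lower, with a median fold of 1.84. The median difference over all tested genes was -0.04. The genes nearest the threshold were Srsf7, inside it with a difference of -0.74 ± 0.25 (adjusted p = 0.0499), and Ypel4, outside it with -1.27 ± 0.42 (adjusted p = 0.05003).

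Fewer genes were called between the SU5416 groups than between the other groups. SuHx Carvedilol against SuHx called 83 genes (0.849%), whereas Hypoxia against Normal called 1178 (12%). Among the 1051 genes that met the rule, 22 were called between the SU5416 groups, 153 between Hypoxia and Normal, and 878 in neither. The single comparisons contributed unequally. SuHx was called apart from Normal in 89 genes and from Hypoxia in 1100, and SuHx Carvedilol from Normal in 1028 and from Hypoxia in 1607. Of the genes that met the rule, 104 were called in none of these 4 comparisons, 270 in 1, 541 in 2, 109 in 3 and 27 in all 4. Those 27 genes were 0.276% of all tested. The comparisons share animals, so the counts are not independent of each other.

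**Figure D1:**
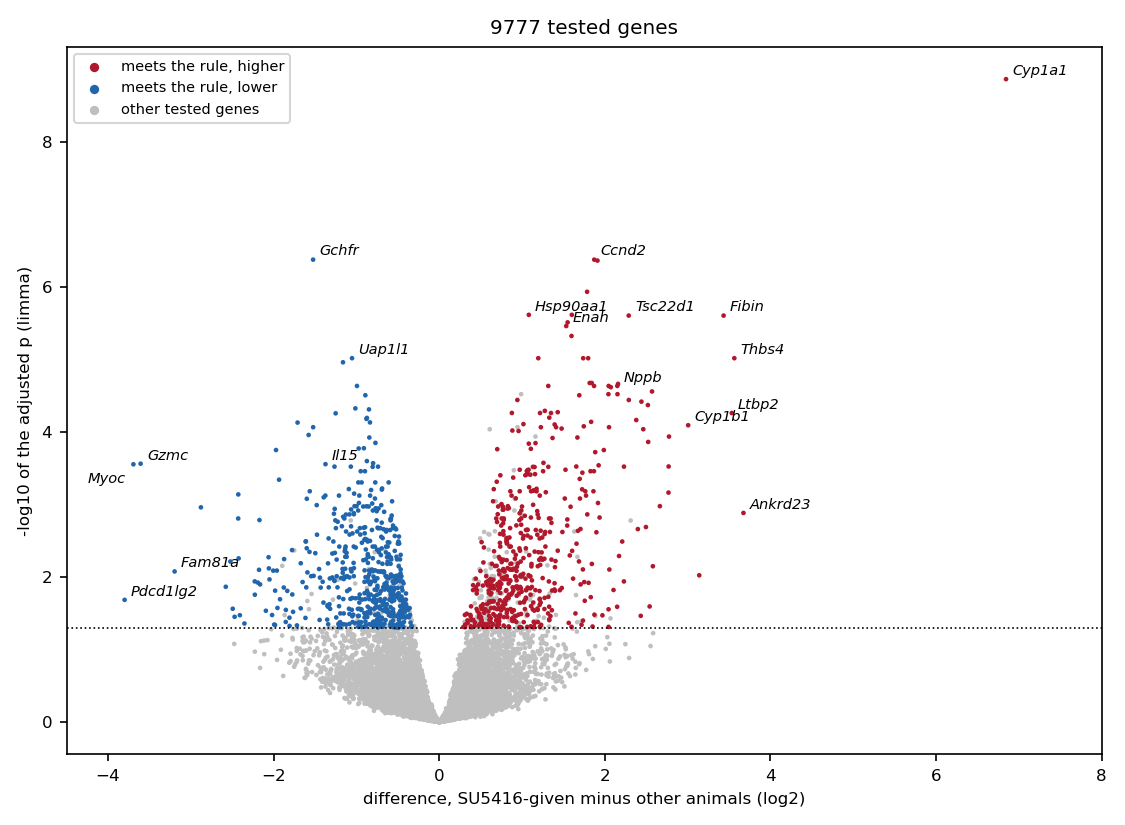
Difference between SU5416-given and other animals (x axis, log2) and -log10 of limma's adjusted p (y axis) for the 9777 tested genes, 1 point per gene. Red and blue points are the 507 higher and 544 lower genes that met the rule, grey points the other genes, and the dotted line marks 0.05; Cyp1a1 stands alone at a difference of 6.85.

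Cyp1a1, which encodes a cytochrome P450 that oxidises aromatic compounds and is the best known AhR target, changed more than any other tested gene that was called. Cyp1a1 lay between 5.00 and 7.62 (median 6.08) in SuHx, between 3.13 and 7.49 (median 5.94) in SuHx Carvedilol, between -0.69 and 0.93 (median 0.18) in Hypoxia and between -3.11 and -1.24 (median -1.88) in Normal animals. No animal of one side overlapped any of the other, and the group means were 6.21, 5.67, 0.17 and -1.97 in that order. The pooled difference was 6.85 ± 0.44 (adjusted p = 1.38e-09), 115-fold. All 4 single comparisons were called, with differences between 5.50 and 8.19. SuHx Carvedilol and SuHx animals were not called apart for this gene (-0.54 ± 0.62, adjusted p = 0.711); carvedilol animals had 4 weeks in air after hypoxia and SuHx animals 2. Hypoxia exceeded Normal by 2.15 ± 0.62 (adjusted p = 0.0263), so the level without SU5416 was not uniform.

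Cyp1b1, a related P450 that also metabolises steroids, rose as well. Cyp1b1 lay between -2.42 and 2.25 (median 0.89) in SuHx, between 1.13 and 2.95 (median 2.45) in SuHx Carvedilol, between -3.31 and -0.52 (median -1.66) in Hypoxia and between -2.85 and -0.08 (median -1.25) in Normal animals. SuHx animal 2 lay among the animals without SU5416, and the other 11 SU5416-given animals lay above all of them. Its difference was 3.01 ± 0.43 (adjusted p = 8.13e-05), 8.04-fold. Without SuHx animal 2 it was 3.31, and without the animals numbered over 100 the call was lost, at 2.11.

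The other AhR targets on the list did not pass the test. Nqo1 lay between -3.18 and -1.83 (median -2.29) in SuHx, between -4.29 and -0.63 (median -2.01) in SuHx Carvedilol, between -3.16 and -1.47 (median -2.51, n = 5) in Hypoxia and between -3.39 and -1.65 (median -1.79) in Normal animals. These ranges overlapped throughout, and the difference for Nqo1, a quinone reductase, was -0.10 ± 0.33 (adjusted p = 0.879). Aldh3a1, an aldehyde dehydrogenase, had a difference of -0.52 (adjusted p = 0.307), Gsta1, a glutathione transferase, 0.34 (adjusted p = 0.274) and Ugt1a6, a glucuronosyltransferase, 0.87 (adjusted p = 0.317). In all, 2 of 6 tested AhR targets met the rule, both higher, with a median difference of 0.60. All tested genes met it in 5.19% as higher and 5.56% as lower. Ahr, Arnt, Tiparp, Cyp1a2 and Gsta2 had no probe with a value in at least 4 animals of every group and were not tested.

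AhR and Arnt bind a short core, GCGTG, in the dioxin response elements of their targets. Promoters are shown for the AhR targets Cyp1b1, which rose, and Nqo1, which was not called, from 250 bases before to 50 after the start site (RefSeq, GRCr8), with each GCGTG core on either strand in capitals (CACGC on the printed strand when it lies on the other). Cyp1b1 is at chr6:21094315-21094614 on the plus strand and Nqo1 at chr19:52220218-52220517 on the minus strand.
Cyp1b1: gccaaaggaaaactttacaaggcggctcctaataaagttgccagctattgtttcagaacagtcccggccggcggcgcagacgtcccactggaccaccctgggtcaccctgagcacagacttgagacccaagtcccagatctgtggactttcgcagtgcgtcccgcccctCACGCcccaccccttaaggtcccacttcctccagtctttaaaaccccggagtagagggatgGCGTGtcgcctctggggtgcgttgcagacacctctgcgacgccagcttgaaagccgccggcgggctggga
Nqo1: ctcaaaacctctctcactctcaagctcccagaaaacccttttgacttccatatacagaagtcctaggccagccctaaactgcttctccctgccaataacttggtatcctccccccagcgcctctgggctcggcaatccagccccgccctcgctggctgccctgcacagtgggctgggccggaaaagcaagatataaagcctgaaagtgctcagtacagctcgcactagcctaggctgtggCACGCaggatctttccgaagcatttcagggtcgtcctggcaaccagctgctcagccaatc
Cyp1b1 held 2 cores and Nqo1 held 1 in these windows. The core was present in the promoters of 45.1% of the 401 higher and 45.4% of the 452 lower genes that met the rule and had a promoter in the table, against 47.6% of 8080 tested genes and 31.1% of all 27457 promoters. The hypoxia response core ACGTG, which differs from it in the first letter, was present in 24.4% of the higher, 25.7% of the lower and 25.4% of the tested genes, and in 19.7% of all promoters. A match is a description of these letters and not a binding site, and the shares were not tested against each other.

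**Figure D2:**
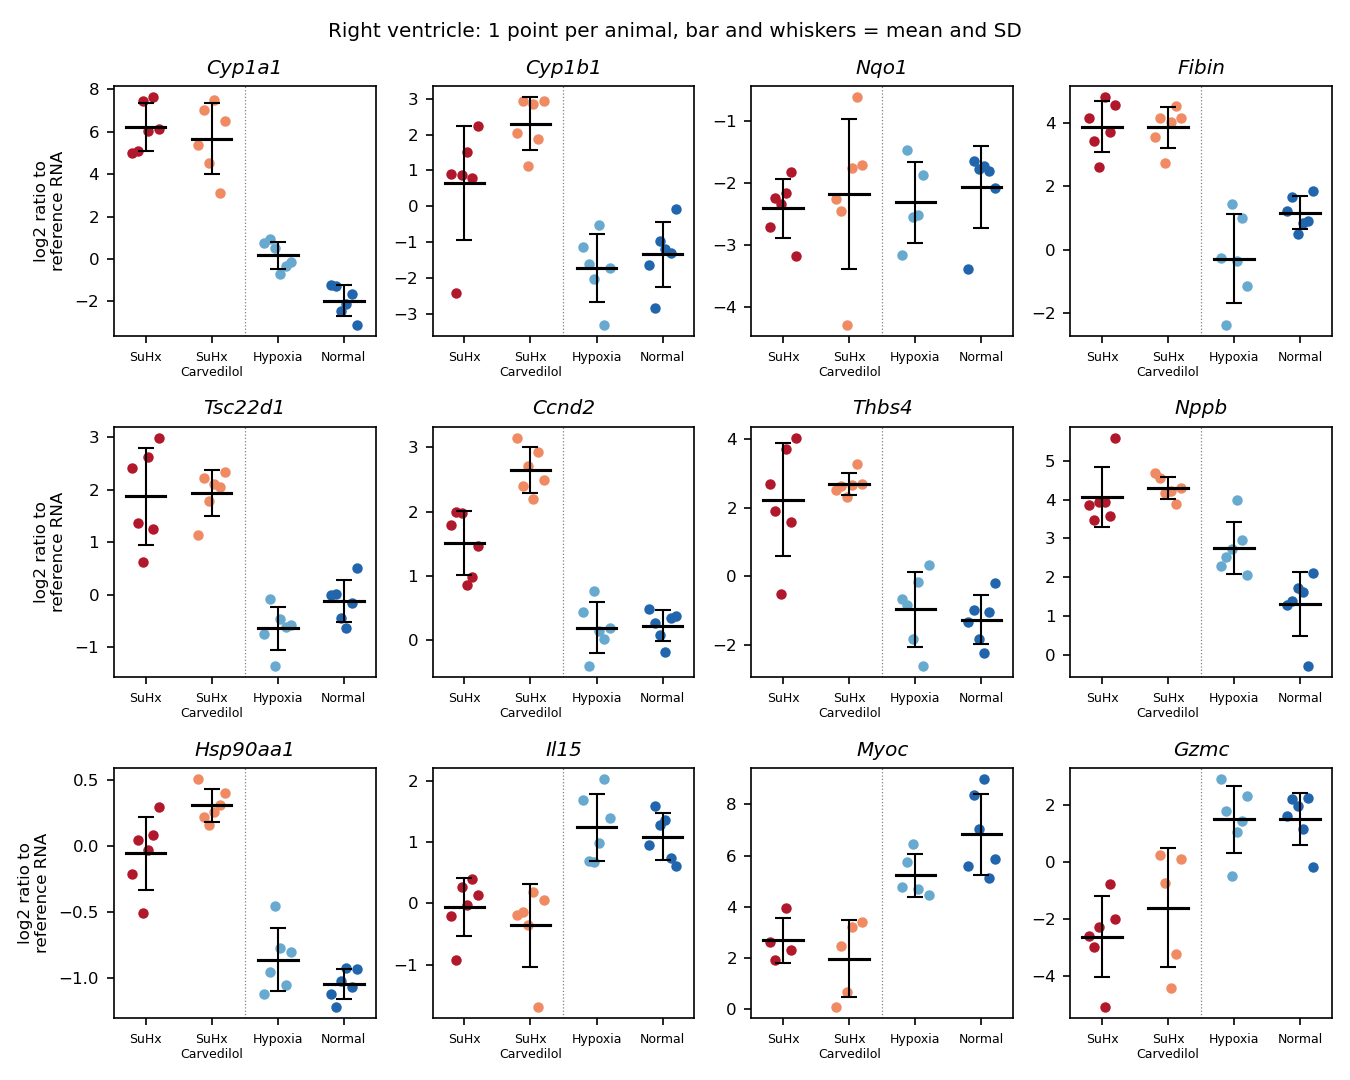
Log2 ratio to reference RNA (y axis) of 12 genes in SuHx, SuHx Carvedilol, Hypoxia and Normal animals (x axis), 1 point per animal, with the group mean as a bar and the SD as whiskers. The dotted line parts SU5416-given animals (left) from the others. Cyp1a1, Fibin, Tsc22d1 and Ccnd2 were higher and Il15 and Myoc lower in SU5416-given animals without overlap, and Nqo1 overlapped in every group.

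Genes of the kinases that SU5416 inhibits did not pass the test, with 1 exception. Kdr lay between 5.94 and 7.17 (median 6.32) in SuHx, between 6.96 and 8.75 (median 7.72) in SuHx Carvedilol, between 5.77 and 8.69 (median 6.47) in Hypoxia and between 5.41 and 7.85 (median 6.04) in Normal animals. Flt1 ranged between -0.26 and 1.68 (median 1.11) in SuHx, between 0.76 and 3.00 (median 1.50) in SuHx Carvedilol, between -0.25 and 1.41 (median 0.23) in Hypoxia and between 0.57 and 1.70 (median 1.26) in Normal animals. Kdr, the main signalling receptor for VEGF, and Flt1, a second VEGF receptor that also acts as a decoy, overlapped across all groups. Their differences were 0.44 ± 0.34 (adjusted p = 0.452) and 0.48 ± 0.27 (adjusted p = 0.269) in that order. The probes averaged for Flt1 did not share a sign, with differences of 1.23, 0.38 and -0.44. The platelet-derived growth factor receptors Pdgfra and Pdgfrb had differences of -0.26 (adjusted p = 0.288) and 0.26 (adjusted p = 0.385). Ret, the receptor for glial cell line-derived neurotrophic factors, was lower, at -1.23 ± 0.32 (adjusted p = 0.014). Flt3, Flt4 and Kit had too few values to be tested.  Ret lost the call under 5 of the 16 alternatives that tested it.

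Of 22 tested genes of VEGF and angiopoietin signalling, 1 met the rule as higher and 2 as lower, with a median difference of 0.42. Over all tested genes, 5.19% met it as higher and 5.56% as lower. Relative to Normal animals, the list's mean level had medians of 0.09 in SuHx, -0.08 in SuHx Carvedilol, -0.77 in Hypoxia and 0.02 in Normal. Angpt1 lay between -5.18 and 1.78 (median -0.31) in SuHx, between -2.09 and 0.96 (median -0.28) in SuHx Carvedilol, between 0.45 and 1.94 (median 1.05) in Hypoxia and between 0.50 and 3.34 (median 2.18) in Normal animals. Angpt1, the angiopoietin that stabilises vessels through the Tie2 receptor, fell by 2.23 ± 0.57 (adjusted p = 0.0116), and 9 of 12 SU5416-given animals lay below every animal without SU5416. Apln lay between -0.71 and 0.92 (median 0.45) in SuHx, between -1.28 and 0.52 (median -0.55) in SuHx Carvedilol, between -0.32 and 1.59 (median 0.89) in Hypoxia and between 0.86 and 1.86 (median 1.50) in Normal animals. Apln, the apelin ligand, was lower in SU5416-given animals by a difference of -1.23 ± 0.24 (adjusted p = 0.00174), and 5 of 12 SU5416-given animals lay below every animal without SU5416. Its receptor Aplnr, an endothelial receptor, was not called (0.49 ± 0.35, adjusted p = 0.396), and its group means were 1.52 in SuHx, 1.09 in SuHx Carvedilol, -0.58 in Hypoxia and 2.21 in Normal animals, so that Hypoxia lay lowest. Notch4, an endothelial Notch receptor, rose by 0.87 ± 0.20 (adjusted p = 0.00658). Vegfa, the ligand itself, was not called (0.81 ± 0.31, adjusted p = 0.0962). Vegfb, a related ligand, was called at 0.52 ± 0.17 (adjusted p = 0.0431) without meeting the rule, since SuHx animals averaged 2.25 and SuHx Carvedilol animals 2.37, against 2.44 in Normal animals. Angpt1, Apln and Notch4 lost their calls without the animals numbered over 100 and Angpt1 and Apln on first arrays alone. Vegfb lost the call under 12 of the 16 alternatives that tested it. Vegfb (any of 13) also lost the call when 1 animal was left out.

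**Figure D3:**
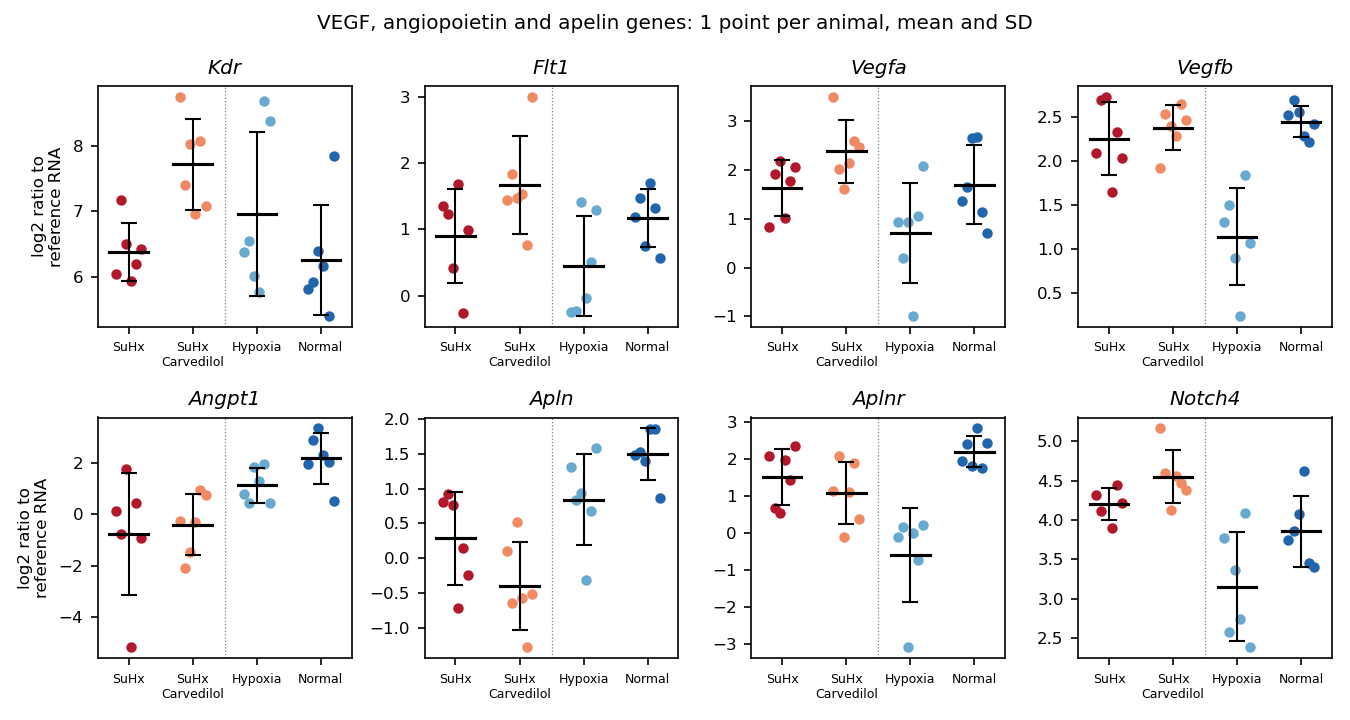
Log2 ratio to reference RNA (y axis) of 8 genes of VEGF, angiopoietin, apelin and Notch signalling in the 4 groups (x axis), 1 point per animal, with mean and SD. Angpt1 and Apln were lower and Notch4 higher in SU5416-given animals (left of the dotted line); Kdr, Flt1, Vegfa and Aplnr did not pass the test.

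For 19 genes, 0.194% of all tested, every SU5416-given animal with a value lay beyond every other animal, 10 of them higher and 9 lower. As a set they were picked out after their values were seen. Besides Cyp1a1, the higher ones were Ccnd2, Fhl1, Fibin, Fstl3, Lrg1, Ltbp4, Plekha3, Ppp1r15a and Tsc22d1. Fibin lay between 2.62 and 4.81 (median 3.94) in SuHx, between 2.72 and 4.52 (median 4.09) in SuHx Carvedilol, between -2.38 and 1.44 (median -0.32) in Hypoxia and between 0.48 and 1.85 (median 1.07) in Normal animals. Fibin, a secreted protein named for its part in zebrafish fin bud initiation, rose by 3.43 ± 0.36 (adjusted p = 2.50e-06), 10.8-fold. Tsc22d1 lay between 0.62 and 2.98 (median 1.89) in SuHx, between 1.14 and 2.35 (median 2.08) in SuHx Carvedilol, between -1.35 and -0.09 (median -0.60) in Hypoxia and between -0.62 and 0.51 (median -0.08) in Normal animals. Tsc22d1, a leucine zipper protein induced by TGF-beta, rose by 2.29 ± 0.24 (adjusted p = 2.50e-06). Ccnd2 lay between 0.86 and 2.00 (median 1.64) in SuHx, between 2.19 and 3.14 (median 2.61) in SuHx Carvedilol, between -0.40 and 0.77 (median 0.16) in Hypoxia and between -0.19 and 0.48 (median 0.31) in Normal animals. Ccnd2, the cell cycle cyclin D2, rose by 1.87 ± 0.17 (adjusted p = 4.24e-07), and was higher in SuHx Carvedilol than in SuHx animals by 1.13 ± 0.24 (adjusted p = 0.0289). Ppp1r15a, the stress-induced partner of the phosphatase that restores translation, rose by 0.94 ± 0.12 (adjusted p = 3.65e-05), Lrg1, a secreted leucine-rich glycoprotein, by 0.88 ± 0.13 (adjusted p = 9.62e-05), Ltbp4, a latent TGF-beta binding protein, by 0.99 ± 0.19 (adjusted p = 0.00122) and Plekha3, a lipid-binding Golgi protein, by 0.70 ± 0.11 (adjusted p = 1.74e-04). Fstl3, a secreted follistatin-like inhibitor of activin, had a difference of 3.14 ± 0.77 (adjusted p = 0.00952), in which 1 Hypoxia animal at -12.21 stood far below the rest; without that animal the difference was 2.37. 

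The 9 lower genes were Arhgef3, Chchd1, Gchfr, Il15, Med6, Myoc, Nprl2, Rnf166 and Uap1l1. Gchfr lay between -2.60 and -1.61 (median -1.94) in SuHx, between -2.57 and -1.85 (median -2.39) in SuHx Carvedilol, between -0.89 and -0.54 (median -0.72) in Hypoxia and between -0.92 and -0.19 (median -0.61) in Normal animals. Gchfr, the feedback regulator of GTP cyclohydrolase and so of tetrahydrobiopterin synthesis, had the lowest adjusted p among the lower genes named here, with a difference of -1.52 ± 0.14 (adjusted p = 4.24e-07). Il15 lay between -0.93 and 0.40 (median 0.06) in SuHx, between -1.69 and 0.18 (median -0.17) in SuHx Carvedilol, between 0.68 and 2.02 (median 1.19) in Hypoxia and between 0.61 and 1.59 (median 1.12) in Normal animals. Il15, a cytokine that maintains natural killer cells and memory T cells, was lower by a difference of -1.37 ± 0.22 (adjusted p = 2.80e-04). Myoc lay between 1.92 and 3.94 (median 2.46, n = 4) in SuHx, between 0.08 and 3.40 (median 2.48, n = 5) in SuHx Carvedilol, between 4.45 and 6.47 (median 4.78, n = 5) in Hypoxia and between 5.13 and 8.98 (median 6.45) in Normal animals. Myoc, the secreted glycoprotein myocilin, had a difference of -3.69 ± 0.55 (adjusted p = 2.81e-04), 12.9-fold lower, on 20 of 24 animals with a value. Uap1l1 was lower by -1.05 ± 0.12 (adjusted p = 9.68e-06) and Nprl2, a subunit of the GATOR1 complex that restrains mTORC1, by -0.77 ± 0.12 (adjusted p = 1.42e-04). The remaining differences were -0.85 for Chchd1, a protein of the mitochondrial ribosome, -0.60 for Arhgef3, -0.56 for Rnf166, a ubiquitin ligase, and -0.50 for Med6, a Mediator subunit. Med6 lost the call without the animals numbered over 100 and Chchd1 and Arhgef3 with only 2 animals per group required. That setting also lets probes with fewer values into the mean of a gene.

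The 27 genes called in all 4 single comparisons, 20 higher and 7 lower, share 10 genes with those 19 and add 17. The added higher genes were Ccn2, Cilp, Csrp2, Enah, Hsp90aa1, Ms4a8, Nppb, Prss23, Rcan1, Rnd1, Serpine2, Tceal7 and Thbs4, and the added lower ones Cars2, Eps8l2, F2 and Gzmc. Csrp2, a LIM protein of smooth muscle, rose by 2.15 ± 0.28 (adjusted p = 3.03e-05), Rnd1, a small GTPase that loosens actin, by 2.07 ± 0.26 (adjusted p = 2.43e-05) and Prss23, a secreted serine protease, by 1.43 ± 0.20 (adjusted p = 5.37e-05). Among the lower genes, Cars2, a mitochondrial cysteinyl-tRNA synthetase, had a difference of -0.80 ± 0.15 (adjusted p = 0.00122) and F2, prothrombin, -0.999 ± 0.183 (adjusted p = 0.00106). SuHx animal 3 lay nearest to the animals without SU5416 for 14 of these 27 genes, and no other SU5416-given animal for more than 2. Eps8l2 lost the call with only 2 animals per group required. Without SuHx animal 3, 45 genes were called in all 4 comparisons. Leaving out Hypoxia animal 3 gave 41 and leaving out Hypoxia animal 4 gave 42.

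**Figure D4:**
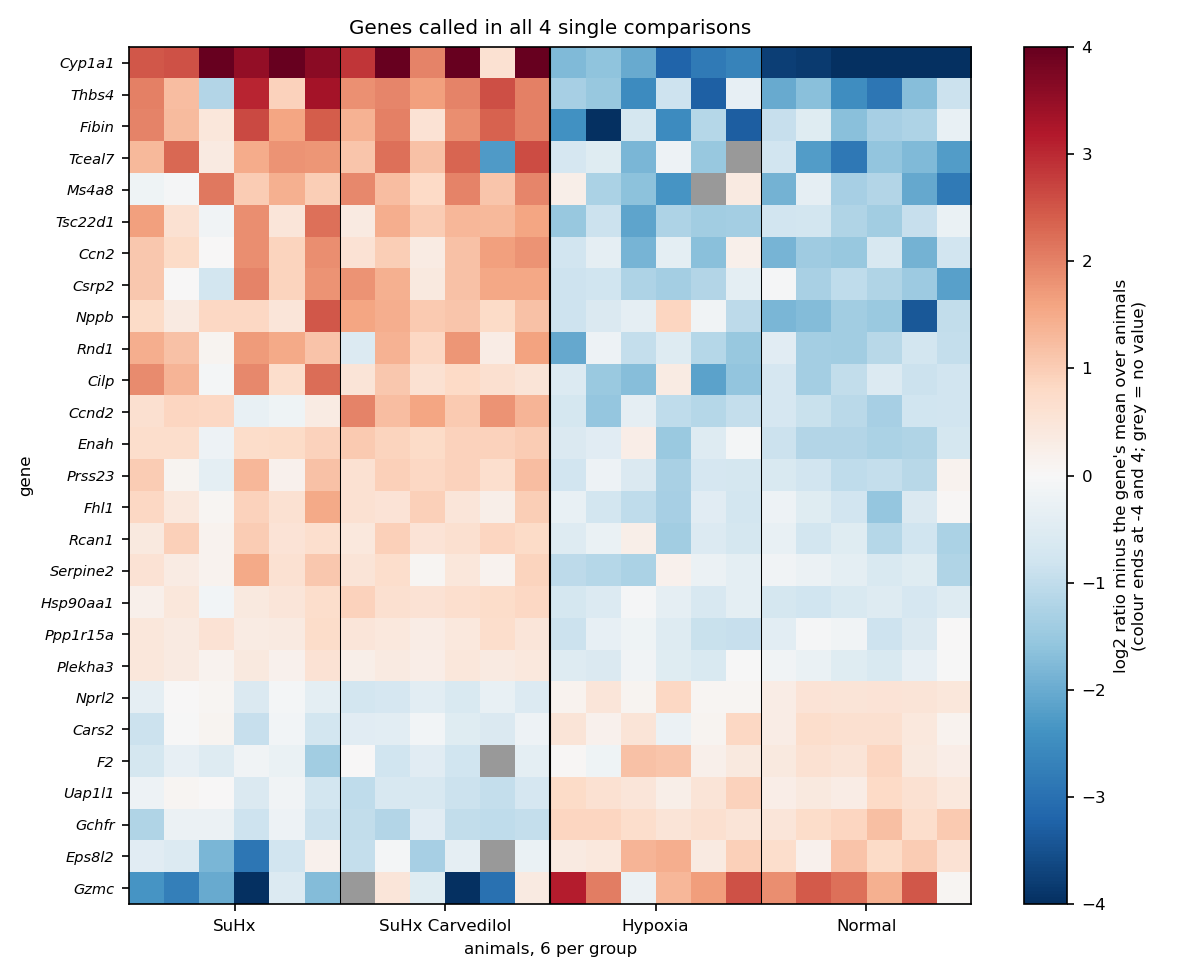
Log2 ratio minus the gene's mean over animals (colour, red above and blue below) for the 27 genes called in all 4 single comparisons (rows, by pooled difference) in 24 animals (columns, 6 per group, SU5416-given left of the thick line); grey cells have no value. SuHx animal 3, the third column, is paler than the other SU5416-given animals in many rows.

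Genes of mechanical load and the fetal programme were higher in SU5416-given animals. Of 19 tested, 12 met the rule, all higher, and the median difference was 0.91. The rule was met by 5.19% of all tested genes as higher and by 5.56% as lower. Nppb lay between 3.47 and 5.58 (median 3.90) in SuHx, between 3.88 and 4.69 (median 4.26) in SuHx Carvedilol, between 2.06 and 3.98 (median 2.63) in Hypoxia and between -0.29 and 2.11 (median 1.50) in Normal animals. Nppb, the B-type natriuretic peptide released by stretched myocytes, rose by 2.15 ± 0.27 (adjusted p = 2.34e-05), 4.44-fold; Hypoxia animal 4, at 3.98, was the only other animal within the SU5416-given range. Rcan1 lay between 3.62 and 4.51 (median 4.08) in SuHx, between 3.91 and 4.43 (median 4.18) in SuHx Carvedilol, between 2.11 and 3.71 (median 2.96) in Hypoxia and between 2.23 and 3.18 (median 2.71) in Normal animals. Rcan1, a calcineurin inhibitor that calcineurin itself induces, rose by 1.32 ± 0.17 (adjusted p = 2.34e-05), and 11 of 12 SU5416-given animals lay above every animal without SU5416. Enah lay between 1.46 and 2.58 (median 2.38) in SuHx, between 2.43 and 2.70 (median 2.56) in SuHx Carvedilol, between 0.17 and 1.93 (median 1.16) in Hypoxia and between 0.39 and 0.95 (median 0.47) in Normal animals. Enah, an actin regulator of the intercalated disc, rose by 1.53 ± 0.17 (adjusted p = 3.49e-06), and 11 of 12 SU5416-given animals lay above every animal without SU5416. Rises were also seen for Fhl1, a LIM protein of the sarcomere, at 1.35 ± 0.19 (adjusted p = 5.52e-05) and Myh7, the slow beta myosin heavy chain, at 1.73 ± 0.30 (adjusted p = 6.22e-04). Acta1, Ankrd1, Ccn2, Csrp3, Des, Hspb7 and Xirp2 also met the rule. Nppa, the A-type natriuretic peptide, did not pass the test (0.77 ± 0.29, adjusted p = 0.0873). Ankrd23, a titin-associated ankyrin repeat protein of muscle, was among the largest rises at 3.67 ± 0.68 (adjusted p = 0.00132). Myh7 lost the call without the animals numbered over 100.

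Sarcomere genes were also higher, with 9 of 18 tested meeting the rule as higher, none as lower, and a median difference of 0.88. That compares with 5.19% higher and 5.56% lower of all tested genes. Tnnt2 lay between 4.67 and 5.83 (median 5.07) in SuHx, between 6.00 and 8.12 (median 7.55) in SuHx Carvedilol, between 3.00 and 4.85 (median 4.29) in Hypoxia and between 3.96 and 4.99 (median 4.30) in Normal animals. Tnnt2, cardiac troponin T, rose by 2.05 ± 0.26 (adjusted p = 2.34e-05), and 10 of 12 SU5416-given animals lay above every animal without SU5416. Tnni3, cardiac troponin I, rose by 1.88 ± 0.29 (adjusted p = 1.91e-04). Ckm, the muscle creatine kinase, rose by 1.69 ± 0.22 (adjusted p = 3.14e-05). Mybpc3, myosin binding protein C, rose by 1.11 ± 0.20 (adjusted p = 6.61e-04), Mb, the oxygen store myoglobin, by 1.99 ± 0.31 (adjusted p = 1.79e-04) and Myl3, the ventricular essential light chain, by 1.20 ± 0.27 (adjusted p = 0.00457). SuHx Carvedilol animals exceeded SuHx animals by 2.15 for Tnnt2 (adjusted p = 0.0102), by 2.07 for Ckm (adjusted p = 0.00559) and by 1.96 for Tnni3 (adjusted p = 0.0289). Myh6, the fast alpha myosin heavy chain, was not called (-0.37 ± 0.47, adjusted p = 0.683), and its sign turned with the probe: with the probe of most values the difference was 1.37 (adjusted p = 0.0015). Of 12 cardiomyocyte markers, 6 were higher by the rule, with a median of 1.16, and their mean level relative to Normal animals lay between 0.00 and 1.18 in SuHx, between 0.70 and 2.08 in SuHx Carvedilol, between -0.64 and 0.21 in Hypoxia and between -0.42 and 0.54 in Normal animals. In whole ventricle, more cells of a type and more RNA per cell cannot be told apart. Tnnt2, Mybpc3, Mb and Myl3 lost their calls without the animals numbered over 100 and Mb with only 2 animals per group required. Without the animals numbered over 100 the difference for Mb was -0.13, on the other side of 0.

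Among extracellular matrix genes, 15 of 33 tested were higher by the rule and 1 lower, with a median difference of 0.71. Shares over all tested genes were 5.19% higher and 5.56% lower. Thbs4 lay between -0.51 and 4.02 (median 2.29) in SuHx, between 2.32 and 3.27 (median 2.65) in SuHx Carvedilol, between -2.60 and 0.35 (median -0.74) in Hypoxia and between -2.22 and -0.19 (median -1.17) in Normal animals. Thbs4, a thrombospondin of stressed muscle and tendon, rose by 3.56 ± 0.42 (adjusted p = 9.68e-06), 11.8-fold; SuHx animal 3 alone lay among the other animals. Ltbp2 lay between -2.10 and 1.68 (median 0.00) in SuHx, between 0.06 and 1.80 (median 0.86) in SuHx Carvedilol, between -6.22 and -1.71 (median -2.99, n = 5) in Hypoxia and between -2.84 and -2.22 (median -2.57) in Normal animals. Ltbp2, a microfibril protein, rose by 3.53 ± 0.48 (adjusted p = 5.52e-05), and 11 of 12 SU5416-given animals lay above every animal without SU5416. Ccn2 lay between -0.33 and 1.53 (median 0.64) in SuHx, between 0.00 and 1.47 (median 0.73) in SuHx Carvedilol, between -2.20 and -0.14 (median -0.92) in Hypoxia and between -2.24 and -0.99 (median -1.81) in Normal animals. Ccn2, the connective tissue growth factor, rose by 2.16 ± 0.27 (adjusted p = 2.19e-05), and 11 of 12 SU5416-given animals lay above every animal without SU5416. Col8a1, a short-chain collagen, rose by 2.52 ± 0.37 (adjusted p = 1.38e-04), Cilp, a matrix protein of cartilage and stressed heart, by 2.04 ± 0.27 (adjusted p = 3.03e-05), Postn, the matricellular protein periostin, by 2.77 ± 0.47 (adjusted p = 6.90e-04) and Comp, another thrombospondin, by 2.54 ± 0.73 (adjusted p = 0.0256). Thbs2 was the 1 matrix gene that met the rule as lower. Comp lost the call without the animals numbered over 100 and with animal number over 100 as a covariate and Postn with only 2 animals per group required. Fap lost the call under 8 and Vim under 4 of the 14 to 16 alternatives that tested them. Fap (any of 3) also lost the call when 1 animal was left out. All 6 tested markers of activated fibroblasts were higher (Cilp, Col8a1, Comp, Fap, Postn and Thbs4, median 2.53), and 5 of these are also on the matrix list, so the lists are not separate. Their mean level relative to Normal lay between 0.08 and 3.49 in SuHx, between 0.97 and 2.51 in SuHx Carvedilol, between -1.31 and 0.00 in Hypoxia and between -0.33 and 0.39 in Normal animals. Of 11 general fibroblast markers only Vim met the rule.

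Of 17 matrix proteases and inhibitors, 4 met the rule, all higher, with a median of 0.34. Plat, the tissue plasminogen activator, rose by 1.52 ± 0.25 (adjusted p = 3.34e-04), Serpine2, an inhibitor of thrombin and plasminogen activators, by 1.16 ± 0.19 (adjusted p = 3.84e-04), Ctss, the lysosomal protease cathepsin S, by 1.19 ± 0.23 (adjusted p = 0.00138) and Adamts2, which trims procollagen, by 1.07 ± 0.22 (adjusted p = 0.00224). TGF-beta and BMP signalling had 6 higher and 3 lower of 29 tested (median 0.47), against 5.19% higher and 5.56% lower of all tested genes. Relative to Normal animals, the list's mean level had medians of 0.24 in SuHx, 0.18 in SuHx Carvedilol, -0.41 in Hypoxia and -0.01 in Normal. The ligands Tgfb2 (1.79 ± 0.34, adjusted p = 0.00138) and Tgfb3 (0.77 ± 0.19, adjusted p = 0.0078), the co-receptor Eng (1.71 ± 0.34, adjusted p = 0.00219) and the inhibitory Smad7 (1.14 ± 0.20, adjusted p = 6.43e-04) rose, as did Fstl3 and Gdf15. The signal carrier Smad3 (-0.89 ± 0.20, adjusted p = 0.00575), the latency protein Ltbp1 (-0.84 ± 0.18, adjusted p = 0.00319) and Bmp7 were lower. Prg4, the lubricating proteoglycan 4, was among the 12 largest rises, at 2.66 ± 0.49 (adjusted p = 0.00106). Ctss, Tgfb2, Tgfb3, Eng, Smad3 and Ltbp1 lost their calls without the animals numbered over 100, Adamts2 and Ltbp1 with only 2 animals per group required and Serpine2 on first arrays alone.

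Genes of fuel use differed by pathway. Of 31 tested genes of fatty acid oxidation, 6 were lower and 1 higher by the rule, with a median of -0.44. Over all tested genes, 5.56% were lower and 5.19% higher. Relative to Normal animals, the list's mean level had medians of -0.59 in SuHx, -0.78 in SuHx Carvedilol, -0.57 in Hypoxia and 0.05 in Normal. Eci1, an isomerase for unsaturated fatty acids, had a difference of -1.61 ± 0.34 (adjusted p = 0.00326), Decr1, a reductase for them, -1.18 ± 0.24 (adjusted p = 0.00201), Acads, the short-chain acyl-CoA dehydrogenase, -1.26 ± 0.32 (adjusted p = 0.0114) and Ech1, another isomerase, -0.87 ± 0.22 (adjusted p = 0.0115). Decr1 lay between 0.62 and 2.99 (median 1.10) in SuHx, between 1.10 and 2.19 (median 1.44) in SuHx Carvedilol, between 1.58 and 2.95 (median 2.52) in Hypoxia and between 2.19 and 3.27 (median 2.90) in Normal animals. For Decr1, 9 of 12 SU5416-given animals lay below every animal without SU5416, and SuHx animal 5, at 2.99, lay within the range of the others. Ucp2, a mitochondrial carrier, rose (1.02 ± 0.21, adjusted p = 0.00273). Acads and Ech1 lost their calls without the animals numbered over 100. Eci1 lost the call under 4 of the 16 alternatives that tested it.

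In the TCA cycle 3 of 22 genes were lower and none higher (median -0.004). In the respiratory chain 6 of 41 were lower and 1 higher (median -0.35). Among all tested genes, 5.56% were lower and 5.19% higher by the rule. Relative to Normal, the respiratory chain's mean level had medians of -0.35 in SuHx, -0.52 in SuHx Carvedilol, -0.38 in Hypoxia and -0.04 in Normal. For the TCA cycle these were -0.24, -0.31, -0.55 and -0.07 in that order. Sdhc lay between 2.05 and 3.07 (median 2.21) in SuHx, between 1.84 and 2.52 (median 2.02) in SuHx Carvedilol, between 2.80 and 3.91 (median 3.21) in Hypoxia and between 2.59 and 4.34 (median 3.30) in Normal animals. For this gene 10 of 12 SU5416-given animals lay below every animal without SU5416. Sdhc and Sdhd, membrane anchors of succinate dehydrogenase, differed by -1.09 ± 0.19 (adjusted p = 6.17e-04) and -0.83 ± 0.24 (adjusted p = 0.0275). The other lower genes were Suclg1, Cox4i1, Cox5a, Cox7c, Ndufc2, Ndufs7 and Uqcrb, and the higher one was Cox6a2, the muscle form of a cytochrome oxidase subunit, at 0.86 ± 0.17 (adjusted p = 0.00213). Sirt3, the mitochondrial deacetylase, was the 1 lower gene among 21 regulators of mitochondria, at -0.59 ± 0.14 (adjusted p = 0.00661). Ppargc1b, a co-activator of mitochondrial genes, was called at 1.63 ± 0.33 (adjusted p = 0.00237) but did not meet the rule, because SuHx animals averaged 2.82 and SuHx Carvedilol animals 2.93, against -0.57 in Hypoxia and 3.05 in Normal animals. Sdhc, Cox6a2 and Sirt3 lost their calls without the animals numbered over 100, Cox6a2 after quantile normalization and Ppargc1b with 1 mean per side. Cox7c and Ndufs7 lost their calls under 8, Suclg1 and Cox4i1 under 6, Sdhd and Ndufc2 under 5 and Cox5a under 4 of the 15 to 16 alternatives that tested them. Sdhd (Normal animal 3), Suclg1 (any of 14), Cox7c (any of 7), Ndufc2 (any of 7) and Ndufs7 (any of 15) also lost the call when 1 animal was left out.

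Glycolysis and glucose uptake had 5 of 21 genes higher, none lower and a median of 0.31. By the rule, 5.19% of all tested genes were higher and 5.56% lower. Relative to Normal animals, the list's mean level had medians of 0.16 in SuHx, 0.20 in SuHx Carvedilol, -0.56 in Hypoxia and 0.04 in Normal. Hk1 lay between 1.22 and 1.79 (median 1.51) in SuHx, between 1.49 and 1.81 (median 1.67) in SuHx Carvedilol, between -3.31 and -0.33 (median -1.32) in Hypoxia and between 0.36 and 1.28 (median 1.08) in Normal animals. Hk1, the hexokinase that traps glucose, rose by 1.87 ± 0.24 (adjusted p = 2.34e-05); every Hypoxia animal lay below every Normal one, 11 of 12 SU5416-given animals lay above every animal without SU5416, and the alternatives gave differences between 0.99 and 4.28. Pfkp, a phosphofructokinase, rose by 1.09 ± 0.27 (adjusted p = 0.00982), Pgam2, the muscle phosphoglycerate mutase, by 1.20 ± 0.23 (adjusted p = 0.00154), Pgam1, its general form, by 0.90 ± 0.20 (adjusted p = 0.00446) and Ldha, lactate dehydrogenase A, by 0.71 ± 0.19 (adjusted p = 0.0152). Among 21 other targets of hypoxia-inducible factor, 3 were higher: Ddit4, an mTORC1 inhibitor, at 1.76 ± 0.30 (adjusted p = 6.61e-04), Egln3, an oxygen-sensing prolyl hydroxylase, at 1.04 ± 0.17 (adjusted p = 3.98e-04) and P4ha1, a collagen prolyl hydroxylase; the list's median was 0.06. Pgam1 and Ldha lost their calls without the animals numbered over 100, Hk1 and Pgam1 with only 2 animals per group required and Ldha on first arrays alone. P4ha1 lost the call under 6 and Pfkp under 4 of the 16 alternatives that tested them. P4ha1 (any of 8) also lost the call when 1 animal was left out.

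Most tested members of the adrenergic signalling, calcium handling and ion channel lists did not meet the rule. Over all tested genes, 5.19% met it as higher and 5.56% as lower. Adcy5, the main cardiac adenylyl cyclase, rose by 1.87 ± 0.31 (adjusted p = 3.50e-04). Akap1, Prkar1a and Grk5, the receptor kinase that desensitises beta receptors, also rose, which made 4 of 23 adrenergic genes higher and none lower (median 0.12). Adcy5 lay between 6.55 and 9.04 (median 7.55) in SuHx, between 5.96 and 7.38 (median 6.66) in SuHx Carvedilol, between 3.43 and 6.47 (median 5.00) in Hypoxia and between 5.14 and 6.03 (median 5.64) in Normal animals. For Adcy5, 10 of 12 SU5416-given animals lay above every animal without SU5416. Of 23 calcium genes, Casq1 (1.58 ± 0.36, adjusted p = 0.00507) and Casq2 (0.63 ± 0.18, adjusted p = 0.0218), calcium buffers of the sarcoplasmic reticulum, and Hrc, another of its calcium-binding proteins, were higher, and S100a1, an activator of calcium cycling, lower (-0.64 ± 0.16, adjusted p = 0.0119). Atp2a2, the calcium pump, was not called (0.07 ± 0.12, adjusted p = 0.763) and neither was Ryr2, the release channel (1.31 ± 0.54, adjusted p = 0.122). Kcnip2, a subunit of the transient outward potassium channel, rose by 2.17 ± 0.48 (adjusted p = 0.00516) and Kcnj11, the pore of the ATP-sensitive potassium channel, by 1.23 ± 0.35 (adjusted p = 0.0226), 2 of 10 channel genes (median 0.57). Relative to Normal animals, the channel list's mean level had medians of 0.25 in SuHx, -0.26 in SuHx Carvedilol, -0.94 in Hypoxia and -0.02 in Normal. For the adrenergic list these were 0.11, -0.42, -0.71 and -0.02 in that order. S100a1 lost the call without the animals numbered over 100, Kcnj11 with animal number over 100 as a covariate and after quantile normalization, Prkar1a and S100a1 on first arrays alone and Kcnip2 with 1 mean per side. Akap1 lost the call under 6 and Grk5, Hrc and Casq2 under 5 of the 16 alternatives that tested them. Grk5 (any of 11) also lost the call when 1 animal was left out.

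Heat shock proteins and chaperones had 8 of 30 genes higher and 1, Pdia4, lower (median 0.24), against 5.19% higher and 5.56% lower of all tested genes. Relative to Normal animals, the list's mean level had medians of 0.05 in SuHx, 0.02 in SuHx Carvedilol, -0.56 in Hypoxia and -0.01 in Normal. Hsp90aa1 lay between -0.51 and 0.29 (median 0.01) in SuHx, between 0.15 and 0.50 (median 0.28) in SuHx Carvedilol, between -1.12 and -0.46 (median -0.88) in Hypoxia and between -1.22 and -0.93 (median -1.05) in Normal animals. Hsp90aa1, the inducible cytosolic HSP90 and a partner of unliganded AhR among many clients, rose by 1.08 ± 0.11 (adjusted p = 2.44e-06), and 11 of 12 SU5416-given animals lay above every animal without SU5416. Hspa4, a co-chaperone of HSP70, rose by 0.88 ± 0.12 (adjusted p = 5.50e-05), Hspb8, a small heat shock protein, by 1.07 ± 0.18 (adjusted p = 3.39e-04) and Ddit3, a transcription factor of the unfolded protein response, by 0.70 ± 0.14 (adjusted p = 0.00175). The proteasome had 1 of 32 genes higher and 4 lower, with differences of -0.61 for Psmb2 and -0.47 for Psmb3, and cytosolic ribosomal proteins had 2 of 50 lower and none higher. Ddit3, Psmb2 and Psmb3 lost their calls without the animals numbered over 100, Hspb8 with only 2 animals per group required and Psmb3 on first arrays alone.

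Markers of immune cells split, where 5.19% of all tested genes were higher and 5.56% lower by the rule. Of 15 tested macrophage markers, 6 were higher by the rule and none lower, with a median of 0.74, and their mean level relative to Normal lay between 0.22 and 1.22 in SuHx, between 0.43 and 1.16 in SuHx Carvedilol, between -0.67 and -0.01 in Hypoxia and between -0.16 and 0.31 in Normal animals. C1qa lay between 5.60 and 7.17 (median 5.72) in SuHx, between 6.34 and 7.99 (median 6.80) in SuHx Carvedilol, between 3.55 and 5.24 (median 4.65) in Hypoxia and between 4.38 and 5.83 (median 4.71) in Normal animals. For C1qa, 8 of 12 SU5416-given animals lay above every animal without SU5416. C1qa and C1qc, chains of the first complement component made by tissue macrophages, rose by 1.75 ± 0.25 (adjusted p = 8.41e-05) and 1.83 ± 0.30 (adjusted p = 3.50e-04), and Lyz2, lysozyme, by 1.08 ± 0.16 (adjusted p = 1.46e-04). Of 11 markers of lymphocytes and natural killer cells, 3 were lower and none higher, with a median of -0.77, and the mean level lay between -1.67 and -0.31 in SuHx, between -1.70 and 0.24 in SuHx Carvedilol, between -0.64 and 0.26 in Hypoxia and between -0.74 and 0.47 in Normal animals. Gzmc lay between -5.07 and -0.77 (median -2.43) in SuHx, between -4.40 and 0.26 (median -0.72, n = 5) in SuHx Carvedilol, between -0.49 and 2.91 (median 1.62) in Hypoxia and between -0.15 and 2.25 (median 1.79) in Normal animals. Gzmc, a granzyme of cytotoxic cells, had a difference of -3.61 ± 0.57 (adjusted p = 2.76e-04), 12.2-fold lower, and 9 of 11 SU5416-given animals lay below every animal without SU5416. The other lower markers were Zap70, a kinase of T cell receptor signalling, at -0.83 ± 0.21 (adjusted p = 0.0118) and Cd3g, a chain of the T cell receptor complex, at -0.94 ± 0.30 (adjusted p = 0.0421). The cytotoxic genes Gzma, Gzmb and Nkg7 and the T cell gene Cd3d were not called, with differences of -0.77, -0.23, -0.90 and -0.20 in that order, and Ptprc, which marks leukocytes, had 0.93 (adjusted p = 0.169); these 5 were chosen after their values were seen. Zap70 lost the call without the animals numbered over 100 and on first arrays alone. Cd3g lost the call under 5 of the 16 alternatives that tested it. Cd3g (any of 13) also lost the call when 1 animal was left out. Of 3 neutrophil markers limma called none (0 at an unadjusted p under 0.05; median 0.19), and of 5 mast cell markers none (4 at an unadjusted p under 0.05; median -0.72).

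Chemokines and cytokines were mixed, with 6 of 33 higher and 5 lower. Over all tested genes, 5.19% were higher and 5.56% lower by the rule, and the other lists of this paragraph lie nearer to these shares. The chemokines Ccl21 (1.49 ± 0.30, adjusted p = 0.00241) and Ccl19 (0.99 ± 0.24, adjusted p = 0.00942), which guide cells to lymphoid tissue, and Cxcr4 (1.52 ± 0.27, adjusted p = 8.32e-04), the receptor of Cxcl12, rose, while Cxcl12 (-0.77 ± 0.14, adjusted p = 0.00113) and the neutrophil attractant Cxcl1 (-0.90 ± 0.19, adjusted p = 0.00251) were lower. Cxcl12 lay between -1.16 and -0.27 (median -0.70) in SuHx, between -1.40 and -0.56 (median -0.92) in SuHx Carvedilol, between -0.70 and 0.19 (median -0.10) in Hypoxia and between -0.43 and 0.41 (median 0.09) in Normal animals. Cxcr4 lay between 0.51 and 2.01 (median 1.34) in SuHx, between 1.77 and 2.52 (median 1.84) in SuHx Carvedilol, between -1.61 and 1.15 (median -0.16) in Hypoxia and between -0.26 and 1.40 (median 0.15) in Normal animals. For Cxcl12, 7 of 12 SU5416-given animals lay below every animal without SU5416, and for its receptor Cxcr4, 9 of 12 SU5416-given animals lay above every animal without SU5416. Immediate early and NF-kappaB genes had 3 of 27 higher, among them the stress factor Atf3 (0.74 ± 0.16, adjusted p = 0.00382) and the flow-responsive factor Klf2 (1.14 ± 0.20, adjusted p = 6.48e-04), and 1 lower, Fosl1. Interferon response genes had 1 of 18 higher, Stat2, and none lower. Cxcr4, Klf2 and Fosl1 lost their calls without the animals numbered over 100, Ccl19 with animal number over 100 as a covariate and Ccl19 and Cxcl1 after quantile normalization. Stat2 lost the call under 9 and Ccl21 under 4 of the 15 to 16 alternatives that tested them. Stat2 (any of 8) also lost the call when 1 animal was left out.

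Endothelial markers had 5 of 16 higher and none lower (median 0.45). Called or not, 10 of the 16 had a positive difference and the rest did not. The list's mean level relative to Normal lay between -0.12 and 0.51 in SuHx and between 0.18 and 0.91 in SuHx Carvedilol animals. It lay between -0.71 and 0.44 in Hypoxia and between -0.32 and 0.38 in Normal animals. Cldn5 lay between 5.28 and 6.78 (median 5.55) in SuHx, between 5.72 and 7.59 (median 7.10) in SuHx Carvedilol, between 3.61 and 4.60 (median 4.27) in Hypoxia and between 4.02 and 5.80 (median 4.95) in Normal animals. For Cldn5, 7 of 12 SU5416-given animals lay above every animal without SU5416. Cldn5, a tight junction protein of endothelium, rose by 1.82 ± 0.22 (adjusted p = 2.13e-05), Esam, an endothelial adhesion molecule, by 1.21 ± 0.26 (adjusted p = 0.00295) and Vwf, von Willebrand factor, by 1.32 ± 0.33 (adjusted p = 0.0116). Smooth muscle and pericyte markers had 2 of 10 higher, Mcam and Rgs5. By the same rule, 5.19% of all tested genes were higher and 5.56% lower. Mesothelial and epicardial markers had 3 of 6 lower, Krt18 (-0.88 ± 0.12, adjusted p = 6.64e-05), Krt8 (-1.29 ± 0.32, adjusted p = 0.0102) and Msln (-1.61 ± 0.34, adjusted p = 0.00324), with a mean level relative to Normal between -2.24 and 0.72 in SuHx, between -1.93 and -0.90 in SuHx Carvedilol, between -1.16 and 0.21 in Hypoxia and between -0.72 and 0.76 in Normal animals. Markers of red cells had 2 of 6 higher, Alas2 (1.67 ± 0.34, adjusted p = 0.00232), the enzyme of erythroid haem synthesis, and Hbb-b1 (1.55 ± 0.30, adjusted p = 0.00162), a beta globin. The part that cell content, residual blood or dissection had in the other results was not tested. Atrial, skeletal muscle, adipocyte and neuronal lists each had at most 1 member that met the rule: Myl7 higher, and Myh1 and Retn lower. Krt18, Msln, Hbb-b1, Myl7 and Retn lost their calls without the animals numbered over 100, Esam, Msln and Alas2 with animal number over 100 as a covariate, Krt18 with only 2 animals per group required, Rgs5 with arrays scaled to equal spread and Myl7 without the 2 arrays with the fewest values. Vwf and Krt8 lost their calls under 5 and Mcam under 4 of the 15 to 16 alternatives that tested them.

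The largest falls by the smallest of the 4 differences between group means were Pdcd1lg2, Gzmc, Myoc, Trpt1, Slurp1, Myh1, Ros1, Soat2, Zfp955a, Angpt1, Fam81a and Kcns2. Pdcd1lg2 lay between -4.50 and 1.71 (median -1.05, n = 4) in SuHx, between -2.98 and 1.80 (median -2.19, n = 4) in SuHx Carvedilol, between -0.19 and 5.27 (median 1.15, n = 5) in Hypoxia and between 2.31 and 4.61 (median 2.53, n = 4) in Normal animals. Pdcd1lg2, the second ligand of the immune checkpoint receptor PD-1, had a difference of -3.80 ± 1.00 (adjusted p = 0.0208), on 17 of 24 animals with a value, and 5 of 8 SU5416-given animals lay below every animal without SU5416. Zfp955a lay between 0.82 and 3.53 (median 2.33) in SuHx, between 0.36 and 2.53 (median 1.99) in SuHx Carvedilol, between 3.03 and 5.04 (median 4.08) in Hypoxia and between 3.44 and 4.40 (median 3.78) in Normal animals. Zfp955a, a zinc finger protein, had a difference of -1.93 ± 0.33 (adjusted p = 4.58e-04), with 10 of 12 SU5416-given animals that lay below every animal without SU5416, and was called under every alternative and without each animal in turn. Myh1, a fast skeletal myosin heavy chain, had -2.05 ± 0.52 (adjusted p = 0.0108), Ros1, a receptor tyrosine kinase, -2.06 ± 0.46 (adjusted p = 0.00536) and Soat2, a cholesterol acyltransferase, -2.09 ± 0.61 (adjusted p = 0.0293). The remaining large rises were Tceal7 (2.77 ± 0.44, adjusted p = 3.01e-04) and Fam180a (2.23 ± 0.56, adjusted p = 0.0116). Ros1, Soat2, Trpt1 and Fam81a lost their calls without the animals numbered over 100, Fam180a with animal number over 100 as a covariate, Myh1 on first arrays alone and Soat2 when the biological replicate number was a block. Kcns2 lost the call under 6 and Pdcd1lg2 and Slurp1 under 4 of the 14 to 16 alternatives that tested them. Kcns2 (any of 8) also lost the call when 1 animal was left out.

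In the remaining lists most tested members did not meet the rule, which 5.19% of all tested genes met as higher and 5.56% as lower. Cell cycle genes had 1 of 27 higher, Ccnd2, and 3 lower, Ccnb1, Ccna2 and Mcm3, of which Ccnb1, the mitotic cyclin B1, had a difference of -0.65 ± 0.16 (adjusted p = 0.00968). Of 11 clock genes, the activator Bmal1 was higher (1.15 ± 0.26, adjusted p = 0.00448) and the output factor Dbp lower (-0.86 ± 0.21, adjusted p = 0.0101). Time of day at sampling was not given in the sources used here. Insulin and growth signalling had 3 of 26 higher, the receptor Igf2r and the binding proteins Igfbp6 and Igfbp7 (0.64 ± 0.15, adjusted p = 0.00661). Antioxidant enzymes had 1 of 26 lower, the mitochondrial thioredoxin Txn2, and none higher. Ccnb1, Igfbp6 and Igfbp7 lost their calls without the animals numbered over 100, Igfbp6, Bmal1 and Dbp with animal number over 100 as a covariate and Ccnb1 with only 2 animals per group required and after quantile normalization. Ccna2 lost the call under 8, Txn2 under 7 and Mcm3 and Igf2r under 6 of the 15 to 16 alternatives that tested them. Ccna2 (any of 14), Mcm3 (any of 4) and Txn2 (Normal animal 3) also lost the call when 1 animal was left out.

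**Figure D5:**
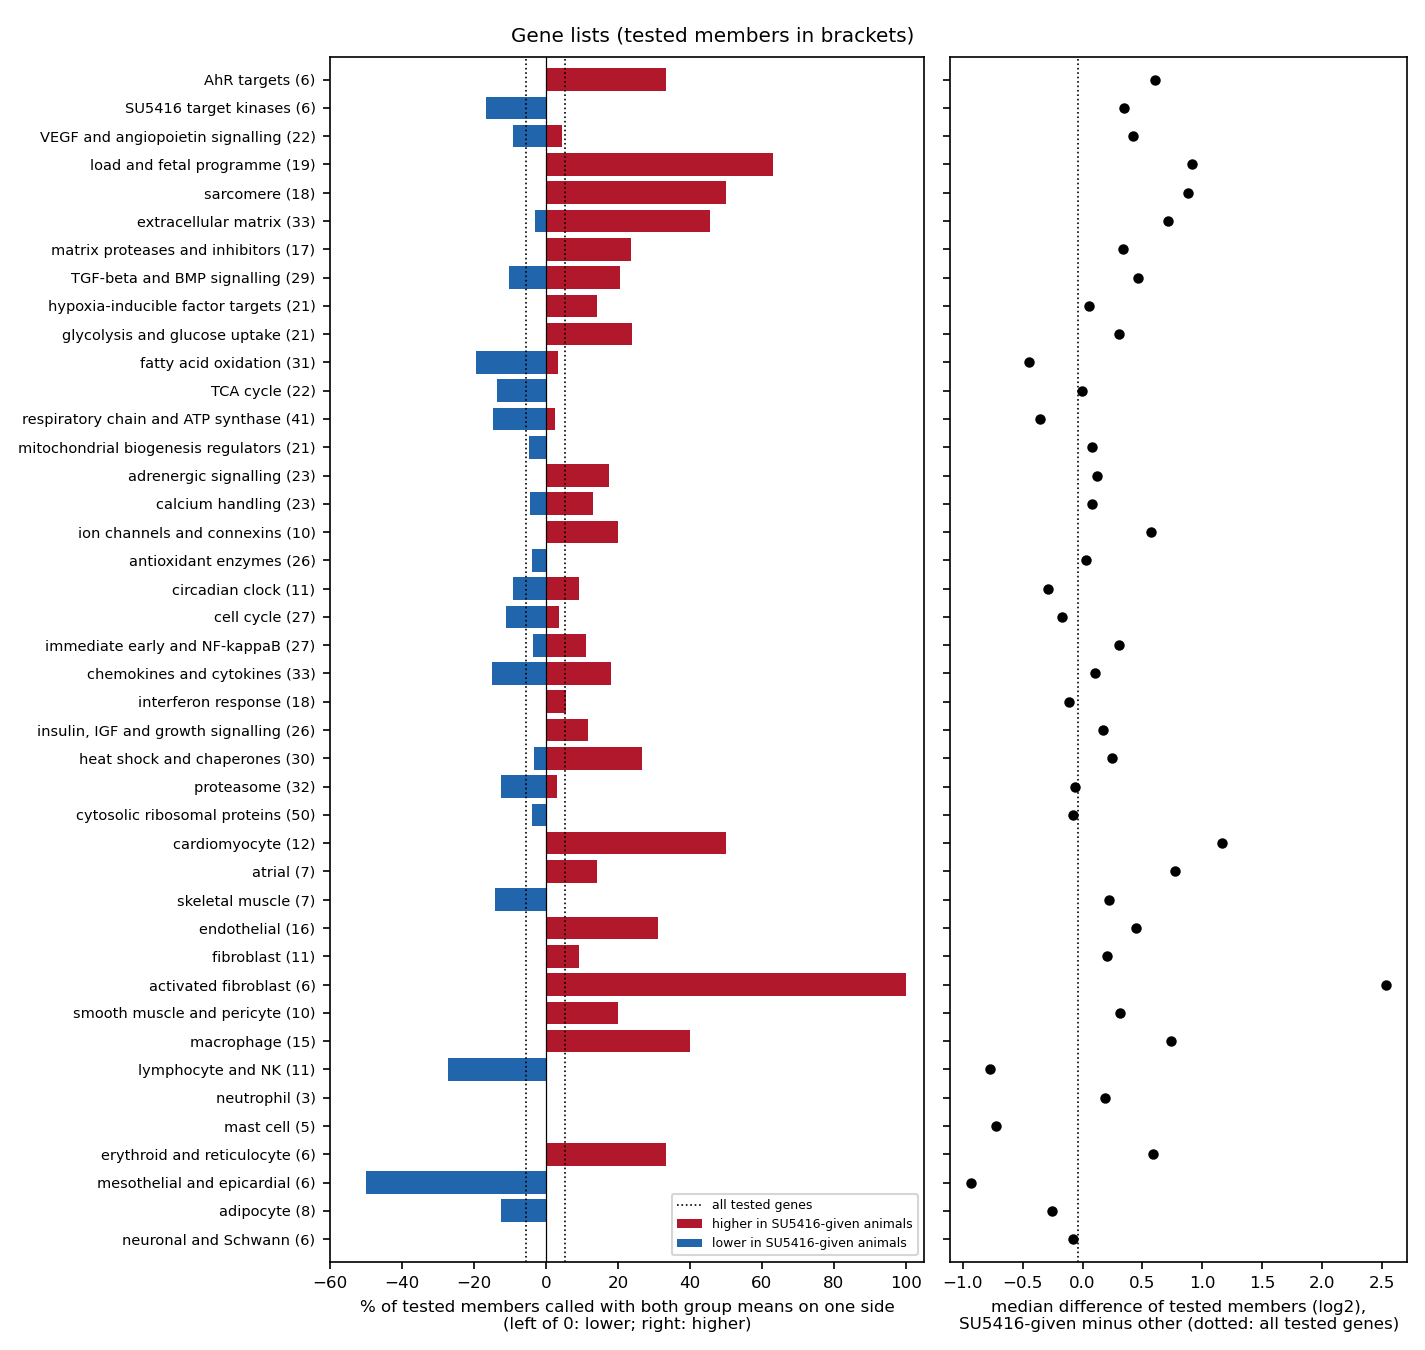
For 27 pathway lists and 15 cell type marker lists (rows, tested members in brackets), the percentage of tested members that met the rule as higher (right of 0) or lower (left) in SU5416-given animals, and beside it the median difference of all tested members (log2). Dotted lines give the same for all tested genes (5.19% higher, 5.56% lower, median -0.04); load, sarcomere, matrix, activated fibroblast, cardiomyocyte and macrophage lists reach farthest right, mesothelial and lymphocyte lists farthest left.

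Calls held to different degrees across settings. Of 164 genes chosen for naming that met the rule, 145 kept their call in every run that left out 1 animal and still tested them, and 38 of these kept it also in every alternative that tested them. With fewer values left, 10 of the 164 were not tested without each of the 24 animals and 34 not under all 16 alternatives. The 38 include Cyp1a1, Fibin, Thbs4, Ltbp2, Ankrd23, Col8a1, Ccn2, Nppb, Rcan1, Enah, Fhl1, Ccnd2, Tsc22d1, Hsp90aa1, C1qa, Cldn5, Tnni3 and Plat among the higher genes and Gchfr, Il15, Uap1l1, Rnf166 and Zfp955a among the lower. Of these, Fibin, Ltbp2, Ankrd23 and Col8a1 were tested in 13 to 15 of the 16 alternatives, and Ankrd23 without 20 of the 24 animals. Acta1, Ankrd1, Bmp7, Csrp3, Des, Gdf15, Hspb7, Pdia4, Thbs2, Uqcrb and Xirp2, which complete the counts of their lists, were not followed across settings. Without the animals numbered over 100, 84 of the 164 were not called. When SuHx Carvedilol animals were set against the 2 Hypoxia animals numbered over 100 alone, a comparison chosen after the data were seen, 1084 genes were called, 772 higher and 312 lower, and 91 of the 164 were not. Presence or absence of values gave no further genes on the side of SU5416: among 5096 named genes that could not be tested, none had a value in at least 10 SU5416-given and at most 2 other animals, and 5 had the reverse (Acot12, Olr1451, Or10ak13, Taar9 and Vom1r102, chosen after their values were seen).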

How the data were processed

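RNA of right ventricle from 24 rats was hybridised on 40 2-colour Agilent Whole Rat Genome arrays against universal rat reference RNA, with the sample in Cy5 and the reference in Cy3, per the labels. The authors scanned the arrays with GenePix Pro and normalised them by lowess with marray, per the series' design text. The deposited values are log2 ratios of sample over reference; 1 of the tables is titled log10, but its values are the same and reach from -13.6 to 14.0, so they were read as log2, with the direction taken from the dyes in the labels. Empty cells made up 34.9% of values, and array medians lay between -0.14 and 0.06. The filter behind the empty cells is not given in the sources used here.

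Spots of a probe were averaged, then the arrays of an animal (1 to 5). Probes with values in at least 4 of 6 animals of every group were kept and probes of a gene averaged, which gave 9777 genes, 6937 of them on 1 probe. limma 3.58.1 (R 4.3.3) fitted 4 group means over 24 animals, with the contrast of the SU5416 groups' mean minus that of the other groups and Benjamini-Hochberg adjustment (threshold 0.05). Permutation tests on 2 array measures were two-sided with 100000 resamples (scipy 1.17.1). The steps were tested on simulated data.

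Named genes were the 12 largest rises and 12 largest falls by the smallest difference between group means, a fixed panel, up to 6 members per list with the lowest adjusted p among those meeting the rule, and the genes called in all 4 single comparisons or without overlap of animals. List members given without a value are the others that met the rule. Members and lists were chosen with earlier results of these data known. Alternatives varied normalization, filters, probes, arrays, blocks, weights and animals. Symbols present under 2 identifiers were not named. Symbols are those of the platform's annotation. Rats are separate animals per the labels.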

Additional observations from a re-analysis of the deposited data

Results flagged for a closer look

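In 59 of the 644 sets of 4 to 6 animals behind the 161 genes named above, the highest or lowest animal stood far from the other animals of its group (Dixon's criterion), and chance alone gives about 1 in 20 such sets. All values are log2 ratios to reference RNA. Among SuHx animals, a far highest value belonged to animal 5 for Decr1 at 2.99, to animal 6 for C1qa at 7.17, C1qc at 6.14 and Nppb at 5.58. Among SuHx animals, a far lowest value belonged to animal 2 for Cyp1b1 at -2.42 and Mcam at 0.50, to animal 3 for Enah at 1.46 and Rnd1 at 1.79, to animal 4 for Chchd1 at 0.51, Myh6 at 0.52 and Psmb2 at -1.01. Among SuHx Carvedilol animals, a far highest value belonged to animal 1 for Cxcr4 at 2.52 and Ppargc1b at 3.45, to animal 3 for Gchfr at -1.85. Among SuHx Carvedilol animals, a far lowest value belonged to animal 1 for Atp2a2 at 1.06, Casq1 at 2.48, Ech1 at 1.91 and Hspb8 at 1.56, to animal 3 for Slurp1 at -10.86, to animal 4 for Cd3g at -6.46, to animal 5 for Arhgef3 at -0.31, Col8a1 at 0.13, Il15 at -1.69, Myh1 at -5.51 and Tceal7 at -1.32, to animal 6 for Cldn5 at 5.72. Among Hypoxia animals, a far highest value belonged to animal 6 for Hrc at 5.58. Among Hypoxia animals, a far lowest value belonged to animal 3 for Aplnr at -3.08, Ndufc2 at 1.48, Pfkp at -3.05 and Tgfb3 at -1.41, to animal 4 for Adamts2 at -0.89 and Ctss at -1.96, to animal 5 for Fstl3 at -12.21 and Krt18 at -4.21, to animal 6 for Col8a1 at -4.68, Ddit3 at -0.085, Prkar1a at -0.69 and Ret at 0.34. Among Normal animals, a far highest value belonged to animal 1 for Postn at -0.97, to animal 2 for Comp at 1.29, to animal 4 for Ccnb1 at -1.45, Chchd1 at 1.74, Mybpc3 at 5.41, Pdcd1lg2 at 4.61 and Retn at 1.66, to animal 5 for Fosl1 at -1.86, to animal 6 for Atf3 at -0.26, Mb at 4.22, Myl3 at 5.92 and Psmb2 at 0.80. Among Normal animals, a far lowest value belonged to animal 1 for Nprl2 at 0.32 and Nqo1 at -3.39, to animal 4 for Ryr2 at 4.18, to animal 5 for Nppb at -0.29, to animal 6 for Ech1 at 2.75, Fam81a at 0.84, Krt8 at -4.26 and Mcm3 at -3.13.

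The SU5416 groups differed from each other for 5 of the genes named above that met the rule, by limma's test of SuHx Carvedilol minus SuHx animals: Ccnd2 (1.13, adjusted p = 0.0289), Ckm (2.07, adjusted p = 0.00559), Krt18 (-0.92, adjusted p = 0.0183), Tnni3 (1.96, adjusted p = 0.0289) and Tnnt2 (2.15, adjusted p = 0.0102). Ccnd2, Ckm and the troponins Tnni3 and Tnnt2 were higher and Krt18 lower in SuHx Carvedilol animals, and each stayed on the same side of both groups without SU5416.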

How the results depend on the processing

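Counts of genes depended on the setting, and the cause was not tested. Against 1214 called genes, 1 mean per side gave 777, values required in at least 2 animals per group 780, first technical arrays alone 700 and leaving out the animals numbered over 100, 414. Against 1051 genes that met the rule, first technical arrays gave 614. Leaving out the animals numbered over 100 gave 405, with SuHx as the only SU5416 group. SuHx Carvedilol against the 2 Hypoxia animals numbered over 100 gave 546, with sides still taken from the group means of all 24 animals. The other alternatives gave 708 to 1331. Against 27 genes called in all 4 single comparisons, quantile normalization gave 49 and arrays scaled to equal spread 61. Values required in at least 2 animals per group gave 14, and in all 24 animals 84. With 1 probe per gene the count was 49, and with first technical arrays 8. All arrays with the animal as a random block gave 80, and animal weights 100. Animal number over 100 as a covariate gave 11, and leaving out the 2 arrays with the fewest values 71. Without the animals numbered over 100 no SuHx Carvedilol animal was left. The 58 genes of that setting were called in the 2 SuHx comparisons alone, so they are not set against the 27. Leaving out 1 animal at a time gave 999 to 1367 called genes, 875 to 1173 that met the rule and 18 to 45 called in all 4 comparisons. The second deposited table gave identical counts.

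Deviations from the group mean were compared between animals of different groups that share a biological replicate number (1 to 6 in the labels). Over 36 such pairs the median correlation was 0.005, from -0.26 to 0.18. Pairs with different numbers had a median of -0.0008. Whether the biological replicate number links animals was not tested. With that number as a replicate block 1050 genes were called, 927 met the rule and 18 were called in all 4 comparisons.

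Where a value was called in either setting, directions turned for 5 named genes, with the cause not tested. Myh6 was -0.37 and not called, and 1.37 both with 1 probe per gene and with values in all 24 animals. Without the animals numbered over 100, Mb was -0.13 and Rpl30 0.12. In SuHx Carvedilol against the 2 Hypoxia animals numbered over 100, Bmal1 was -0.46 and Dbp 0.35. Kdr, Nqo1 and Atp2a2 also changed sign, without a call in either setting. The number of arrays limits the precision, 34.9% of values were empty, and genes with values in fewer than 4 animals of any group were not tested.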
